A study of Mus musculus with 2 samples.

Results

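Globin-high erythroblasts were the cells in which the 4 adult globin genes Hba-a1, Hba-a2, Hbb-bs and Hbb-bt together reached at least 200 CP10K, that is 200 of every 10000 UMIs (unique molecules counted) of the cell. Cells were selected on that sum alone, among cells with under 20% of UMIs from mitochondrial genes. The rule chose 267 of 10342 such cells, 225 of 6392 in the hypoxia library and 42 of 3950 in the control library. The cells came from bone marrow of ICR mice, an outbred stock, aged 7 to 8 weeks, from which lineage-positive cells had been removed with magnetic beads, and were captured on the BD Rhapsody platform. The hypoxia mice had lived for 13 days in a chamber held at 52.93 kPa, the pressure of 5000 m altitude, with 19.5% oxygen in its air. The control mice were killed when they arrived, so the groups also differed in time, age and handling. Each group was 1 library, with its number of mice not given in the sources used here. No test could therefore be run, and all intervals are exact 95% intervals that cover counting error only. Since depletion removes cells that carry lineage antigens, the cells described here are those that passed that step.

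Erythroblasts are the nucleated precursors that make haemoglobin, a tetramer of alpha- and beta-globin chains that each hold a haem group. As they mature they divide a few more times, fill with globin mRNA, make haem in mitochondria with imported iron, build the membrane skeleton, and lose ribosomes, mitochondria and finally the nucleus. GATA1 and KLF1 are the transcription factors best known for switching on globin and haem genes, and erythropoietin, the hormone that low oxygen induces, supports the survival of earlier precursors.

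The 4 globin promoters are shown because the globin copies differed between the libraries, and that of Alas2 because its level followed globin most closely. Alas2 is the first enzyme of haem synthesis in red cells. Each sequence is RefSeq's, on build GRCm38.p6, and runs 5′ to 3′ on the strand of the gene from 250 bases before to 50 bases after the start. Capitals mark GATAA, the core bound by GATA factors, and CACCC, the core bound by KLF1, each searched on both strands (TTATC and GGGTG on the opposite one). They lie at chr11:32283422-32283721 (plus strand, Hba-a1), chr11:32296242-32296541 (plus, Hba-a2), chr7:103827879-103828178 (minus, Hbb-bs), chr7:103813874-103814173 (minus, Hbb-bt) and chrX:150547167-150547466 (plus, Alas2).
Hba-a1: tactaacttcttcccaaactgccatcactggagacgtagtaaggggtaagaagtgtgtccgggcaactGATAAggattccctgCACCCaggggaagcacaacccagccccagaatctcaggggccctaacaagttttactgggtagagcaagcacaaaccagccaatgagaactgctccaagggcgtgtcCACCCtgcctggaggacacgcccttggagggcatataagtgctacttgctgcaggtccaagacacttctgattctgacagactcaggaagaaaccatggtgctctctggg
Hba-a2: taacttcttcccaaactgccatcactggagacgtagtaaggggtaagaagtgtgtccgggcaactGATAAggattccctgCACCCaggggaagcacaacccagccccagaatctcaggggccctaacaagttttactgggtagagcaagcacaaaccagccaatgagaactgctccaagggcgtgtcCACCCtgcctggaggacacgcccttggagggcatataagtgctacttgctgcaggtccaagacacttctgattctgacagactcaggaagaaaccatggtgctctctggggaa
Hbb-bs: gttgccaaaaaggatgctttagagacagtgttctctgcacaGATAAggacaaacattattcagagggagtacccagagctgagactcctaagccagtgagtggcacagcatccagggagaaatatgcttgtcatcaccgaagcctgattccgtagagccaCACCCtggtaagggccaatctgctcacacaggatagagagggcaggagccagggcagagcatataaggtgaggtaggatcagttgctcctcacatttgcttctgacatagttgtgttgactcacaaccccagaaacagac
Hbb-bt: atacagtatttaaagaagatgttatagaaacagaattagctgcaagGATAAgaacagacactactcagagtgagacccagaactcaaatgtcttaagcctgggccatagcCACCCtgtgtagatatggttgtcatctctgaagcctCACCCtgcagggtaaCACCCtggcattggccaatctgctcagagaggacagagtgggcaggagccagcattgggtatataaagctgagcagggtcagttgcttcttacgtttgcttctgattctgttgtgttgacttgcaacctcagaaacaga
Alas2: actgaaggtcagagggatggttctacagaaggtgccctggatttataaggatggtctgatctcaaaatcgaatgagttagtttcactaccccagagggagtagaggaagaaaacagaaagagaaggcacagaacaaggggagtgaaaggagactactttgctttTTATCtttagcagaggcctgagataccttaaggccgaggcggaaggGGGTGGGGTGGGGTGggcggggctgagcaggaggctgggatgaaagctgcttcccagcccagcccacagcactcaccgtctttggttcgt
All 5 held both motifs. Of 32851 promoters of this length in the table, 25.4% held GATAA, 57.5% held CACCC and 12.6% held both, and a match of so few letters describes the sequence without showing a bound site. The Hba-a1 and Hba-a2 windows aligned over 303 positions with 297 identical bases and 0 mismatches, the rest being overhang at the ends. Those of Hbb-bs and Hbb-bt had 74 mismatches and 71.3% identity.

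The label was checked against its markers. Slc4a1, the band 3 anion exchanger of the red cell membrane, had a UMI in each of the 267 cells, and Alas2 in all but 1. Hemgn, a nuclear protein of erythroid cells, was abundant too, at 2099 CPM in hypoxia and 2787 CPM in control (UMIs per 1000000 non-globin UMIs of these cells, the unit used throughout). Markers of other cells were scarce. The 9 granulocyte and monocyte markers summed to 88.7 and 58.7 CPM, against 3677 and 2766 over all cells, and all 9 had a UMI in the hypoxia cells and 7 in the control cells, where Ctsg and Csf1r were at 0. The 5 basophil and mast markers summed to 72.4 and 9.17 CPM, against 2948 and 1158 over all cells, and Cpa3, Ms4a2 and Fcer1a were at 0 in the control cells. Prss34 and Mcpt8, proteases of basophils, had 125 and 80 UMIs in hypoxia cells and 3 and 2 in control cells, and the granulocyte protease Elane 55 and 2, and their part in the results below was not tested. Among 6 macrophage markers C1qa, C1qb, C1qc, Adgre1 and Vcam1 were at 0 in both libraries. In cells rich in granule genes, which should make no globin, summed globin had a median of 0.368 CP10K in hypoxia (648 cells) and 0 in control (326 cells), with 0 cells at the threshold in either. Doublet calling marked 112 and 33 cells, with 0 globin-high cells among them. The tables shared 23 cell indices, which 2 hypoxia cells and 0 control cells of the globin-high set carried. Kept cells had a median of 21584.5 UMIs in hypoxia and 32287 in control.

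Globin-high cells were a larger part of the hypoxia library, and the excess lay at the low end of the globin range. They made up 3.52% (3.08 to 4.0) of kept cells in hypoxia and 1.06% (0.767 to 1.43) in control, a ratio of 3.31 (2.37 to 4.72). Between 200 and 500 CP10K, where alpha- and beta-globin have begun to build up, there were 169 hypoxia cells (2.64%) and 16 control cells (0.405%), a ratio of 6.53 (3.90 to 11.7). From 500 to 1500 CP10K there were 39 and 6 cells, a ratio of 4.02 (1.69 to 11.6). At 1500 CP10K or more, where globin was 28.7% of UMIs in hypoxia and 27.6% in control, the hypoxia library had 17 cells (0.266%) and the control library 20 (0.506%), a ratio of 0.525 (0.258 to 1.06). Over all cells at 500 CP10K or more the ratio was 1.33 (0.822 to 2.21). These 3 ranges are called the lowest, middle and highest band, and the control counts of 16, 6 and 20 and the 17 hypoxia cells of the highest band are thin. The highest band held 47.6% of the control cells (32 to 63.6) and 7.56% of the hypoxia cells (4.46 to 11.8). Just below the threshold, cells at 20 to 200 CP10K (onset cells, in which globin is starting) were 803 in hypoxia and 208 in control, a ratio of 2.39 (2.05 to 2.79). Read against all cells with at least 20 CP10K, globin-high cells were 21.9% in hypoxia and 16.8% in control, a ratio of 1.30 (0.934 to 1.86). A share of cells in 1 library against another does not give the number of erythroblasts in the marrow.

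**Figure D1:**
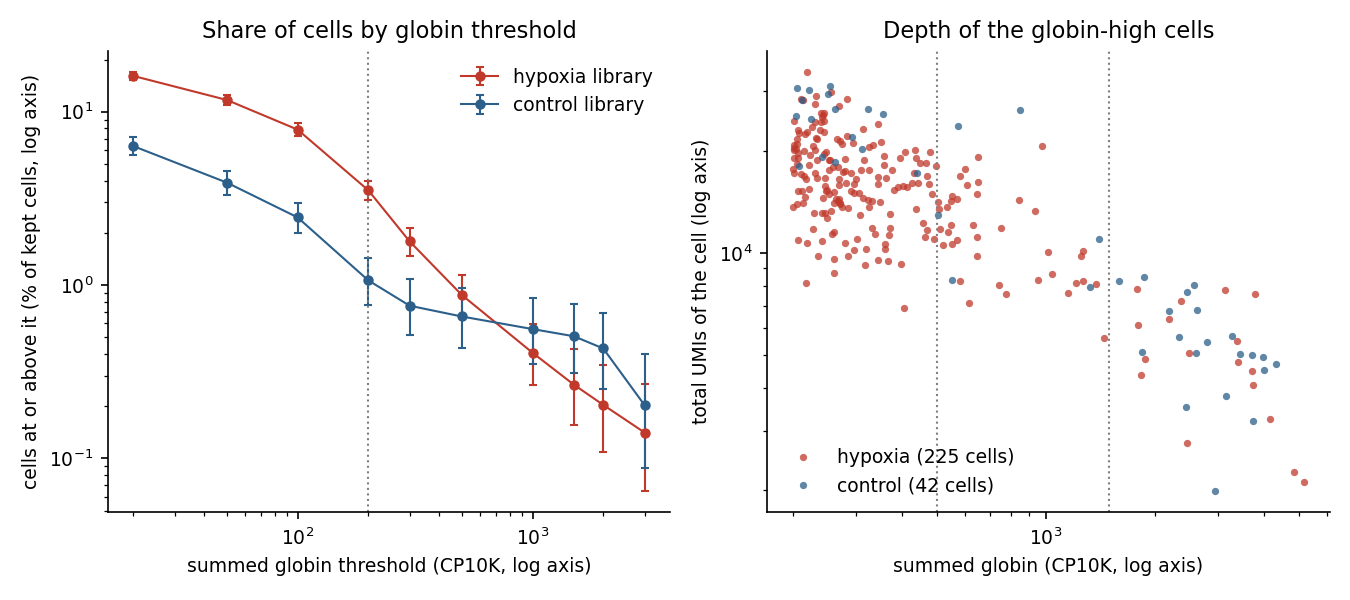
Left, percent of kept cells at or above each summed globin threshold (both axes log), with exact 95% intervals as bars and the threshold of 200 CP10K dotted; the hypoxia share is higher up to 300 CP10K and the intervals overlap from 500 CP10K on. Right, total UMIs against summed globin (both axes log), 1 point a cell, with the band edges at 500 and 1500 CP10K dotted; cells with more globin have fewer UMIs in both libraries.

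The threshold itself cut a continuous range. The cells nearest to it were at 200.25 and 199.66 CP10K in hypoxia and at 204.43 and 199.91 in control, and cells from 180 to 200 CP10K numbered 38 and 15 beside 33 and 4 from 200 to 220. Summed globin ran from 200.25 to 5175 CP10K with a median of 306 in hypoxia cells, and from 204 to 4324 with a median of 1365 in control cells.

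Alpha-globin UMIs were split differently between the gene copies in the libraries. Hba-a2 is the downstream copy of the adult alpha pair on chromosome 11 (32296489 to 32297298, GRCm38, plus strand), and Hba-a1 is the upstream copy (32283511 to 32284465). In hypoxia cells 9516 Hba-a2 UMIs stood beside 66227 of Hba-a1, so Hba-a2 made 12.6% (12.3 to 12.8) of alpha UMIs. In control cells 304 stood beside 21808, or 1.37% (1.23 to 1.54). Per cell the share ran from 1.69 to 26.6% with a median of 10.1% in hypoxia and from 0.272 to 2.60% with a median of 1.40% in control. At least 5% was reached by 208 of 225 hypoxia cells and 0 of 42 control cells. The share also moved with globin level in the hypoxia library, from 8.20% in onset cells to 9.75%, 13.0% and 22.2% in the 3 bands, and stayed at 1.31%, 1.33%, 1.67% and 1.31% in control. The annotated transcripts of both genes have 537 identical bases and 1 mismatch where they align, so reads can be split between them with little certainty, and the share is that of the deposited assignment. The sum of both copies is not touched by that split as long as reads that fit both were kept. Whether they were kept was not checked.

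The beta-globin copies differed as well, in the other direction. Hbb-bt, the downstream gene of the adult beta pair on chromosome 7 (103812524 to 103813996, minus strand), made 34.0% (33.7 to 34.4) of beta UMIs in hypoxia and 46.8% (46.2 to 47.4) in control, the rest being Hbb-bs (103826534 to 103828096). In onset cells the share was 16.9% in hypoxia and 44.3% in control. Across the bands it was 27.2%, 37.6% and 49.6% in hypoxia and 49.7%, 49.9% and 45.2% in control, so the libraries were furthest apart where globin was low. Under 10% was found in 31 of 225 hypoxia cells and 0 of 42 control cells, and among onset cells in 409 of 803 and 6 of 208. The annotated transcripts of Hbb-bs and Hbb-bt have 46 mismatches where they align, and their last 200 bases, aligned alone, have 37. How far the globin sequences of these outbred mice match the annotated ones was not tested, so this share too is that of the deposited assignment. Alpha over beta UMIs came to 1.16 in hypoxia and 0.858 in control. That ratio fell from 1.42 in onset cells to 1.23, 1.13 and 0.995 across the hypoxia bands, and was 1.10 and then 0.873, 0.975 and 0.826 in control. Hbq1b, a theta globin, had 164 and 64 UMIs, or 0.476 (0.406 to 0.555) CP10K in hypoxia and 1.08 (0.831 to 1.38) in control. Hba-x, Hbb-bh1 and Hbb-y, the embryonic genes, had at most 8 UMIs in either library.

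**Figure D2:**
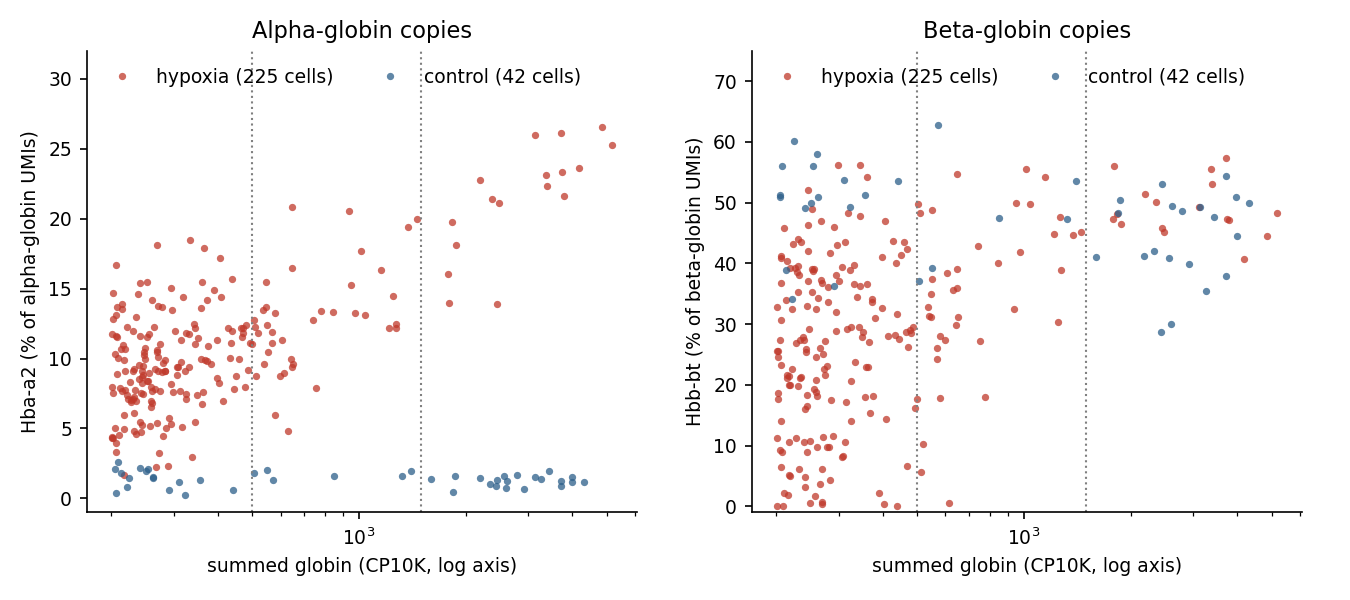
Share of Hba-a2 among alpha-globin UMIs (left) and of Hbb-bt among beta-globin UMIs (right) against summed globin (log axis), 1 point a cell, with the band edges at 500 and 1500 CP10K dotted. Control cells keep at most 2.60% Hba-a2 at every globin level while hypoxia cells reach 26.6%, and hypoxia cells spread down to 0% Hbb-bt at low globin.

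Cells with more globin held fewer molecules and fewer kinds of them. Median UMIs per cell were 16661, 11552 and 4864 over the lowest, middle and highest band in hypoxia and 25494.5, 11967.5 and 5090.5 in control. Genes detected fell from 4017 to 3206 and 1507 in hypoxia and from 4816.5 to 3074.5 and 1332.5 in control. With every cell thinned to 5000 UMIs, which left out 9 of 17 hypoxia cells and 7 of 20 control cells of the highest band, they were 2161, 2008 and 1527 in hypoxia and 2116, 2036 and 1444 in control. Mitochondrial genes made 5.89%, 4.27% and 1.52% of UMIs in hypoxia and 5.14%, 3.18% and 1.29% in control.

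The following account by globin level is a description, since globin chose the cells and the bands. Levels in CPM were summed over the cells of a band, with globins left out of the total so that they do not push other genes down, and log2 ratios have 10 CPM added on both sides. Of 3655 genes compared, 11.5% (420) were at least 2-fold higher and 22.3% (816) at least 2-fold lower in the highest than in the lowest band in both libraries, and 2943 had the same sign. A split of each library's cells at its own median globin gave 33 and 4. Counted per 1000000 of all UMIs, 275 genes were higher.

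Xpo7, Rsad2, Tmcc2, Tent5c and Bpgm were among the 10 largest gains from the lowest to the highest band. Xpo7, a nuclear exporter tied to chromatin condensation in erythroblasts, went from 8.53 to 5661 CPM in hypoxia and from 5.22 to 4158 in control, a log2 ratio of 8.26 and 8.10. Rsad2, better known as the antiviral viperin, went from 8.53 to 4104 and from 0 to 2432 CPM. Tmcc2, a membrane protein, went from 67.2 to 7429 and from 44.4 to 3793. Tent5c, a poly(A) polymerase that lengthens mRNA tails, went from 72.2 to 2774 and from 36.6 to 2633. Bpgm, which makes the 2,3-bisphosphoglycerate that lowers the oxygen affinity of haemoglobin, went from 55.4 to 1476 and from 47.02 to 1424. Slfn14, an endoribonuclease, reached 941 and 529 CPM in the highest band, Tcp11l2 746 and 454, Fam214b 665 and 491, Irgm2 568 and 630, and Sowaha 324 and 277, which completed the 10 largest gains. Xpo7 and Tcp11l2 were still at 7.02 and 4.68 CPM in the middle hypoxia band and at 0 in that of control. A count of 3 UMIs is 7.02 CPM in the middle hypoxia band and 36.2 CPM in that of control. The control 0 can therefore not be told from the hypoxia levels.

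Alas2, the first enzyme of erythroid haem synthesis, and Slc4a1 followed globin most closely over single cells. Ranked by the mean over both libraries of Spearman's rho over the 225 and 42 cells, the highest were Alas2 (0.85), Slc4a1 (0.82), Slc25a37 (0.81), Gpx1 (0.78), Fech (0.78) and Car2 (0.74). These cells share a library and a falling depth, so the values describe the 2 libraries. Slc25a37 is mitoferrin, which brings iron into mitochondria, Fech sets the iron into haem, Gpx1 removes peroxides and Car2 is a carbonic anhydrase. Alas2 was at 580, 1413 and 5548 CPM over the bands in hypoxia and at 423, 1303 and 6212 in control. Slc4a1 was at 2386, 4024 and 8321 in hypoxia and at 1463, 3439 and 9677 in control. Both rose in order in both libraries, and Alas2 had medians over cells of 5.48, 13.4 and 49.6 per 10000 non-globin UMIs of the cell in hypoxia and 4.54, 13.8 and 48.2 in control.

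**Figure D3:**
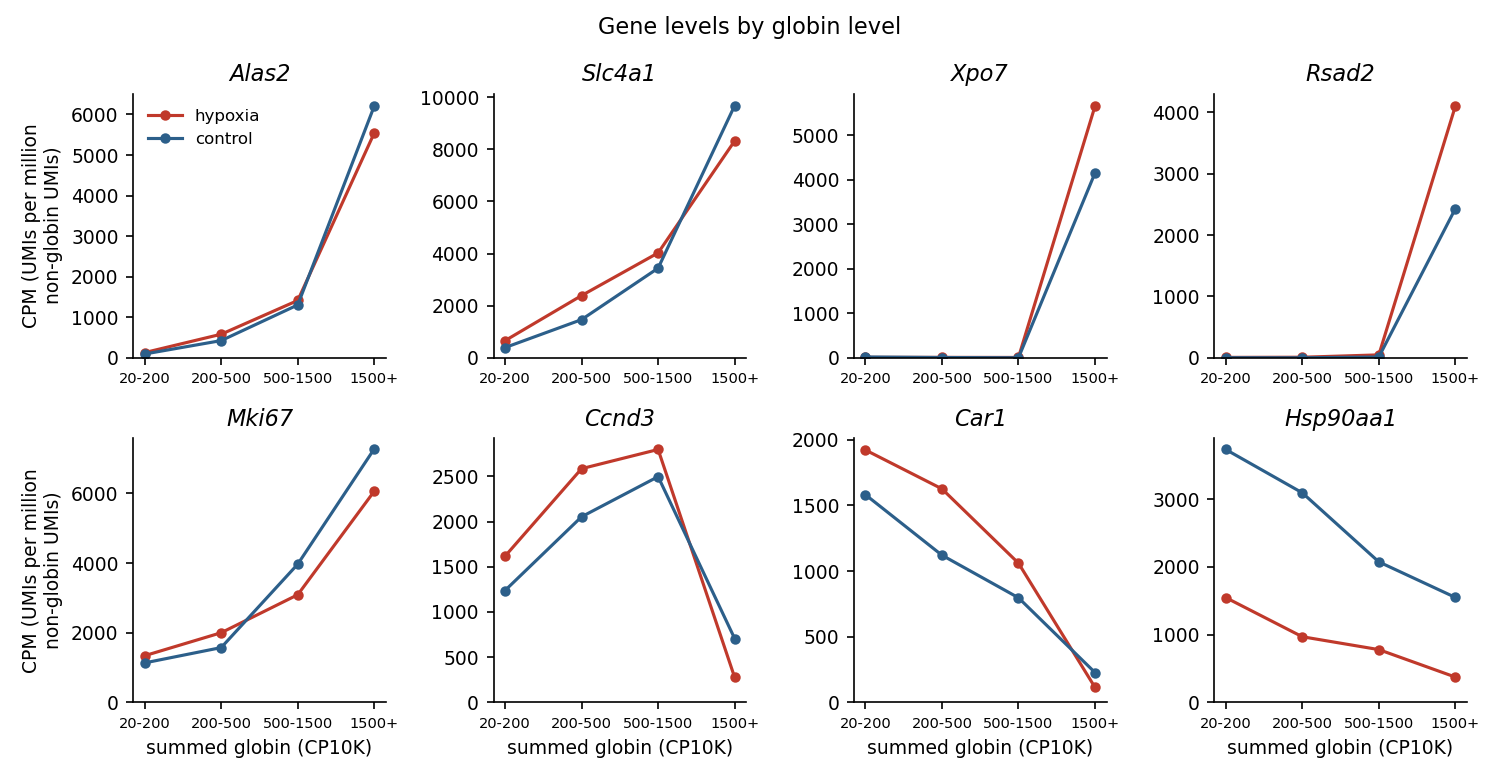
UMIs per 1000000 non-globin UMIs of 8 genes in onset cells and in the 3 globin bands (20-200, 200-500, 500-1500 and 1500 or more CP10K), 1 line a library. Alas2 and Slc4a1 climb over all bands, Xpo7 and Rsad2 are far higher in the highest band than in the cells below it, Ccnd3 and Car1 are low there, and Hsp90aa1 is lower in hypoxia at every level; with 1 library a group and the deposited UMIs summed over cells, no error bar is drawn.

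Gene groups also differed between the bands. Of 27 membrane and cytoskeleton genes 16 were at least 2-fold higher in the highest band in both libraries, beside 11.5% of all genes. Of 35 terminal maturation genes 27 were so. Median log2 ratios were 1.12 and 1.78 (membrane) and 1.81 and 2.29 (maturation), beside -0.43 and -0.40 over all genes. Of 80 cytosolic ribosomal protein genes 77 were at least 2-fold lower in both libraries, beside 22.3% of all genes, with medians of -1.74 and -2.15. Their sum was 129717 CPM in the lowest band and 38655 in the highest in hypoxia. Mitochondrially encoded genes had medians of -2.04 and -0.99, and early progenitor genes -1.50 and -1.65, where Car1, the carbonic anhydrase of early erythroid cells, went from 1626 to 114 CPM in hypoxia and from 1121 to 227 in control. Genes of G2 and mitosis had medians of 0.48 and 0.70 and S phase genes -1.39 and -0.45. Ccnd3, the cyclin that sets how often erythroblasts divide, was at 2586, 2798 and 276 CPM over the hypoxia bands and at 2053, 2498 and 706 over those of control. Sfxn1, a mitochondrial serine carrier, C1qtnf12, the lipoprotein receptor Scarb1, Mtdh, Tmem8, Ap3b1, Tcf25, Acyp1 and the mitochondrial chaperone Hspa9 were among the 10 largest losses, and all 10 were at 0 UMIs in the highest band of both libraries, which at 3 UMIs allows up to 48.7 CPM in hypoxia and 37.8 CPM in control.

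**Figure D4:**
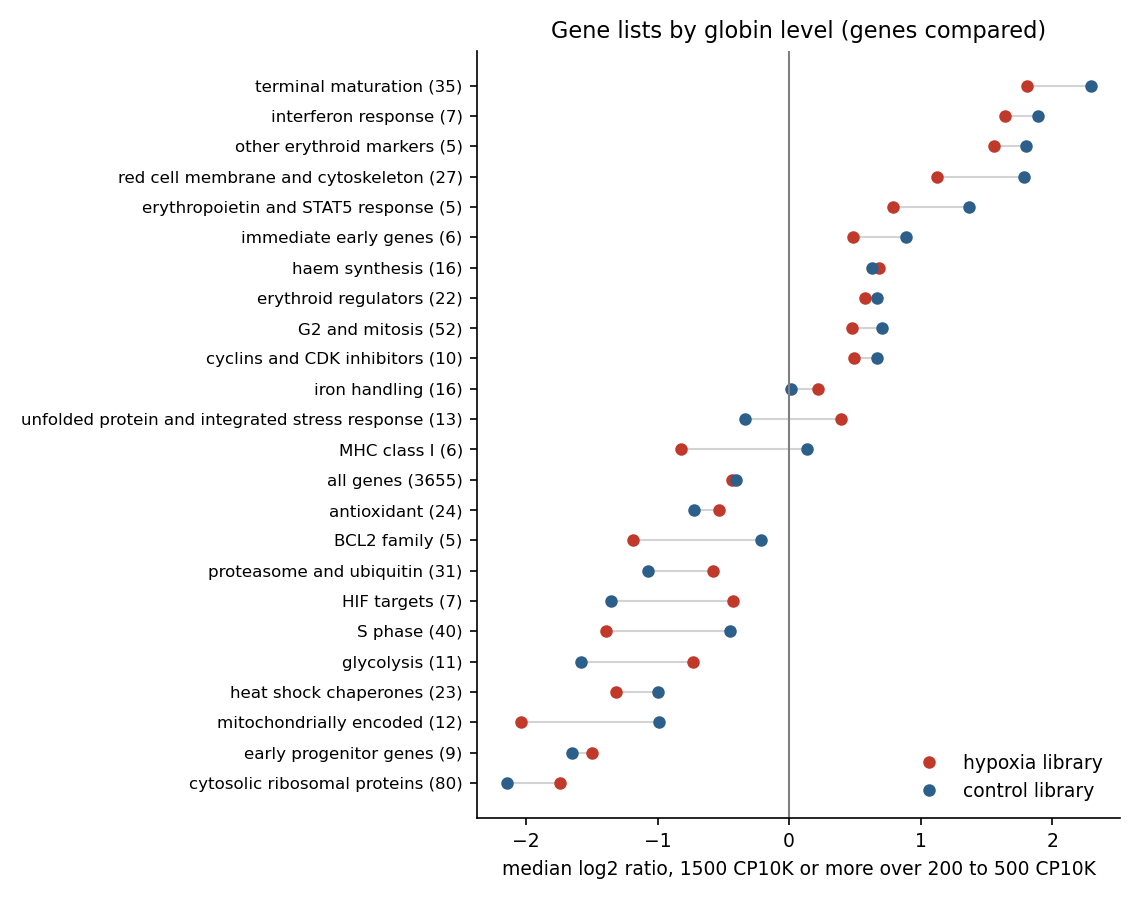
Median log2 ratio of the highest over the lowest globin band for each gene list, with the number of genes compared in brackets, 1 point a library. Lists with at least 5 genes compared are drawn. Terminal maturation genes lie furthest right in both libraries, mitochondrially encoded genes lie furthest left in hypoxia (-2.04) and cytosolic ribosomal proteins furthest left in control (-2.15).

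The highest band held a mix of cells. Xpo7 UMIs were found in 9 of its 17 hypoxia cells and 8 of its 20 control cells, a split chosen after the values were seen. Cells with Xpo7 had a median of 3736 CP10K globin in hypoxia and 3721 in control, and those without had 2036 and 2444. Rsad2 was at 9326 CPM in the hypoxia cells with Xpo7 and at 226 in those without, and at 6680 and 285 in control. Mki67, a marker of dividing cells, went the other way with 3045 and 8310 CPM in hypoxia and 5779 and 8042 in control. Top2a, the topoisomerase of dividing cells, had a UMI in 2 of 9 hypoxia and 2 of 8 control cells with Xpo7, and in all 8 and all 12 cells without it. The steep rise of Xpo7 and Rsad2 in the highest band thus came from less than all of its cells in either library.

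For hypoxia against control, UMIs were summed over all globin-high cells of each library, 3302646 non-globin UMIs in hypoxia and 545029 in control. A gene was called higher or lower where the log2 ratio, with 10 CPM added on both sides, reached 1.5-fold and the exact interval of the ratio left out 1. Of 6436 genes that had 50 or more UMIs in all, 8.97% (577) were higher and 4.74% (305) lower in hypoxia, and the median log2 ratio of all was 0.07. Setting that median to 0 gave 452 and 408. The bands were filled unequally, since the highest band gave 14.6% of non-globin UMIs in control and 1.87% in hypoxia. The same genes were therefore also compared in the lowest band alone, with 169 and 16 cells, where 8.48% (546) were higher and 5.14% (331) lower. Of these, 364 were higher and 182 lower in both comparisons, and 4 were lower in all cells but higher in the lowest band. In the lowest band median summed globin was 266 and 251 CP10K, close to each other, while median depth was 16661 and 25494.5 UMIs.

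Of 9 genes of antigen presentation by MHC class I compared, 5 (55.6%, beside 8.97% of all genes) were higher in hypoxia cells and 1 (11.1%, beside 4.74%), the non-classical H2-T24, was lower. H2-D1, a classical heavy chain encoded on chromosome 17 (35262730 to 35267499), was at 708 CPM (2337 UMIs) in hypoxia and 80.7 (44 UMIs) in control, a ratio of 8.77 (6.51 to 12.1). A single control cell held 22.7% of its control UMIs. Per cell in the lowest band H2-D1 ran from 1.62 to 17.6 per 10000 non-globin UMIs of the cell with a median of 7.35 in hypoxia and from 0 to 4.03 with a median of 0.581 in control, so the ranges overlapped at their ends. H2-K1, the other classical chain, was at 153 and 44.0 CPM, the non-classical H2-Q4 at 53.9 and 11.0, and the shared light chain B2m at 1016 and 365, a ratio of 2.78 (2.41 to 3.22). Onset cells also differed, with H2-D1 at 783 and 136 CPM, H2-K1 at 212 and 92.3 and H2-Q4 at 47.2 and 17.1. Tap1, a subunit of the peptide transporter, had 52 UMIs in hypoxia and 1 in control, a ratio of 8.58 (1.47 to 345). The median log2 ratio of the 9 was 1.12 (1.38 in the lowest band). H2-T24 was at 20.9 and 38.5 CPM, and its log2 ratio turned from -0.65 to 0.71 in the lowest band. Class I heavy chain genes resemble each other, so the split of reads among them is uncertain, while B2m has no such copies.

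Heat-shock chaperones had a lower summed level in hypoxia cells. Their 30 genes summed to 5610, 4310 and 3585 CPM over the hypoxia bands and to 12717, 8928 and 5670 over those of control, so each band was lower in hypoxia. Hsph1, which helps Hsp70 release its client, was at 69.3 CPM in hypoxia (229 UMIs) and 497 in control (271 UMIs), a ratio of 0.139 (0.116 to 0.167). In the lowest band it had a median of 0.647 per 10000 non-globin UMIs of the cell in hypoxia, with 59 of 169 cells at 0, and 5.98 in control, with 0 of 16 cells at 0. Hspa8, the constitutive Hsp70, was at 447 and 1503 CPM, a ratio of 0.297 (0.273 to 0.324). Dnaja1, a co-chaperone of Hsp70, was at 210 and 627, and Hsp90aa1, the inducible Hsp90, at 934 and 2715 CPM. Hsp90aa1 stood at 969, 779 and 373 CPM over the hypoxia bands and at 3096, 2075 and 1550 over those of control, lower in hypoxia in each. Of 25 chaperones compared 12 (48.0%, beside 4.74% of all genes) were lower and 0 higher, with a median log2 ratio of -0.57, or -0.79 in the lowest band. Chaperones were also lower in cells with little globin, with a sum of 8612 and 16615 CPM in onset cells and Hsph1 at 149 and 797 CPM in onset cells.

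Promoters of Hsph1 and Dnaja1 are shown because these chaperones were lower together. They are RefSeq's on build GRCm38.p6 at chr5:149636287-149636586 (minus strand, Hsph1) and chr4:40722218-40722517 (plus strand, Dnaja1), read as above, and capitals mark GAANNTTC, inverted units of the heat-shock element, which reads the same on both strands.
Hsph1: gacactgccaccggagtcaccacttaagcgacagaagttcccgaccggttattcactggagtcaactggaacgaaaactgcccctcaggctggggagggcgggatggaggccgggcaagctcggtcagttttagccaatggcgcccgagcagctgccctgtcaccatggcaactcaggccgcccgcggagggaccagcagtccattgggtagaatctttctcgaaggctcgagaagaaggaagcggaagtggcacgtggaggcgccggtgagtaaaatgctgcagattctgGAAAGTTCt
Dnaja1: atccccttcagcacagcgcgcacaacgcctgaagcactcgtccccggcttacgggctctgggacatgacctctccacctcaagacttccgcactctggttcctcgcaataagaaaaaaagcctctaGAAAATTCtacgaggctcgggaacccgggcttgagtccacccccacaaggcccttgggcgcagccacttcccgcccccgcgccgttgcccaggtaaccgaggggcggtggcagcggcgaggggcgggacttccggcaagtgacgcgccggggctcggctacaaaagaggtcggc
The motif was in 4 of 9 promoters found for the chaperones that were lower (Hsph1, Dnaja1, Chordc1 and Fkbp4), in 2 of 10 for the other chaperones, and in 7.86% of all 32851. In Hsph1 it starts at position 41 after the annotated start and in Dnaja1 at position -124. A match is a description of the sequence and no site was measured.

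Of 21 genes of the unfolded protein and integrated stress responses compared, 7 (33.3%, beside 4.74% of all genes) were lower in hypoxia cells and 0 higher, and the median was -0.56 (-0.44 in the lowest band). The list summed to 3272, 3430 and 5515 CPM over the hypoxia bands and to 4773, 3982 and 5178 over those of control. Its sum was thus not lower in hypoxia in the highest band. Hsp90b1, the Hsp90 of the endoplasmic reticulum, was at 208 CPM in hypoxia and 534 in control, and Xbp1, a transcription factor of the unfolded protein response, at 12.4 and 38.5. Edem1, which sorts misfolded glycoproteins for removal, was at 11.8 and 31.2. The calls of Edem1 and Hsp90b1 depended on the cells taken: the log2 ratio of Edem1 went from -0.92 to -0.34 with cells from 100 CP10K on, and to -0.60 in the lowest band, and that of Hsp90b1 from -1.32 to -0.46 with cells from 500 CP10K on, each without a call there. Hspa5 lost its call with cells from 500 CP10K on (-0.89 to -0.31). Atf4 lost its call in cells thinned to 5000 UMIs (-0.86 to -0.50).

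Apart from these groups, the highest ratios belonged to genes of varied function. Apol11b and Apol8, apolipoprotein L genes on chromosome 15 (77633946 to 77643286 and 77747798 to 77757003, both on the minus strand), had 413 and 175 UMIs in hypoxia cells and 0 in control cells. Against a floor of 3 UMIs over the control cells, or 5.50 CPM, Apol11b at 125 CPM was 22.7 times and Apol8 at 53.0 CPM 9.63 times that floor. The exact intervals of their ratios of hypoxia over control had lower ends of 18.4 and 7.75. Apol11b was at 68.2, 321 and 1363 CPM over the hypoxia bands, in 78 of 225 cells, of which a single cell held 9.93% of its UMIs. Its median over cells was 0 in each band. In the highest band 9 of 17 cells were at 0, and 1 cell reached 131 per 10000 non-globin UMIs of the cell. Over all kept cells Apol11b had 586 UMIs in hypoxia and 2 in control. H1f0, the replacement linker histone, had 341 UMIs in hypoxia and 3 in control, a ratio of 18.8 (6.37 to 91.4). In onset cells H1f0 was at 91.8 and 51.9 CPM, closer together than in globin-high cells. Tspo2, an erythroid transporter protein linked to haem and cholesterol handling, was at 233 and 60.5 CPM, a ratio of 3.84 (2.71 to 5.62). It stood at 226 and 67.7 CPM in onset cells, so its difference was not particular to globin-high cells. Per cell in the lowest band Tspo2 had medians of 2.10 and 0.561 per 10000 non-globin UMIs of the cell, with 11 of 169 and 1 of 16 cells at 0. The others were the transcriptional coactivator Zmiz1 at 68.4 and 11.0, the DNA damage protein Trp53bp1 at 66.9 and 11.0, the LIM protein Csrp1 at 175 and 47.7, Rhobtb3 at 53.0 and 11.0 and Tstd3 at 56.6 and 12.8 CPM. Tstd3 was no longer called with cells from 100 CP10K on, where its log2 ratio went from 1.54 to 0.48. Zmiz1 lost its call with bands weighted as in control (1.90 to 0.84), that is, by each band's share of the control cells. That weighting, used for both libraries, gives the highest band 47.6%. Rhobtb3, Trp53bp1 and Tstd3 lost their calls in cells thinned to 5000 UMIs, at 1.01, 0.99 and 0.85.

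Among the 12 lowest ratios, those not of chaperones split by whether they held at matched globin. The replication-dependent histone Hist1h4i was at 9.08 CPM in hypoxia and 78.9 in control, and at 7.46 and 75.8 in the lowest band. Cwc22, a splicing factor, was at 47.5 and 180 CPM, at 51.5 and 183 in the lowest band, and at 53.1 and 187 in onset cells. Gda, a guanine deaminase, was at 87.8 and 343, and at 59.4 and 159 in the lowest band, though with bands weighted as in control its log2 ratio went from -1.85 to -0.23. Slc7a5, a carrier of large amino acids, was at 7.87 and 60.5, and the desaturase family gene Fads3 at 14.5 and 75.2, both also lower in the lowest band with ratios up to 0.396 and 0.349 at the upper end of their intervals. Bcl2l1, which encodes the survival factor BCL-XL, was at 37.5 and 160 CPM over all cells but at 19.9 and 34.0 in the lowest band and at 811 and 907 in the highest, and the interval of its ratio in the lowest band reached 1.17. For Irgm2 and Cdkn2d, the latter a CDK inhibitor of late erythroblasts, the intervals in the lowest band also took in 1. Cdkn2d was at 40.5 and 47.0 CPM in that band, but at 568 and 1021 in the highest band, where it was again lower in hypoxia. Tent5c and Rsad2 were lower over all cells, with log2 ratios of -1.65 and -1.87, and were at 0.82 and 0.89 in the lowest band. There the interval of the ratio ran from 1.15 to 3.67 for Tent5c. Rsad2 was at 8.53 and 0 CPM in that band, with an interval that began at 0.819 and so took in 1. These genes were also among the steepest in globin level, and the highest band is where the control cells were concentrated.

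Genes of haem synthesis were nearly level over all cells, with a higher median in the lowest band. Of 16 compared 2 (12.5%, beside 8.97% of all genes), Tspo2 among them, were higher and 1 (6.25%, beside 4.74%), Alas2, lower, with a median log2 ratio of 0.06, or 0.26 in the lowest band. Alas2 was at 781 and 1400 CPM over all cells, a ratio of 0.558 (0.514 to 0.606). In the lowest band it was at 580 and 423 CPM, with an interval of the ratio from 1.17 to 1.62. Its log2 ratio was 0.45, 0.12 and -0.16 over the lowest, middle and highest band. With bands weighted as in control it was -0.11, so the direction of Alas2 depended on the globin range taken. Fech had log2 ratios of -0.17 over all cells and 0.57 in the lowest band. Cpox, an enzyme of the late pathway, was at 4735 and 4901 CPM, and Tmem14c, a porphyrin transporter, at 1046 and 1295.

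Of 18 iron genes compared 1 (5.56%, beside 8.97% of all genes) was higher, Tfr2, the second transferrin receptor, at 90.8 and 51.4 CPM, and 2 (11.1%, beside 4.74%) were lower, Slc25a37 and the ferritin receptor Ncoa4 at 110 and 191. With cells from 100 CP10K on, none of the 3 was called, with log2 ratios of 0.33, -0.15 and -0.27. Slc25a37 was at 2153 and 3308 CPM over all cells and at 1781 and 1557 in the lowest band. Tfrc, the main iron uptake receptor, was at 2178 and 2095, and Fth1, the ferritin heavy chain, at 7971 and 7855 CPM. The list's median was 0.02, and 0.17 in the lowest band.

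Of 27 membrane and cytoskeleton genes compared 0 were higher, beside 8.97% of all genes, and 2 (7.41%, beside 4.74%) lower, Tmcc2 and Epb41 (protein 4.1, at 251 and 442 CPM), with a median of -0.14 that became 0.25 in the lowest band. Slc4a1 was at 2709 and 2959 CPM over all cells and at 2386 and 1463 in the lowest band, where its ratio had an interval from 1.5 to 1.78. Per cell in the lowest band it ran from 4.72 to 48.5 per 10000 non-globin UMIs of the cell with a median of 23.9 in hypoxia and from 7.03 to 26.1 with a median of 15.3 in control. Epb42 (protein 4.2) had log2 ratios of -0.50 over all cells and 0.73 in the lowest band, and Add1, an adducin that caps actin, 0.14 and 1.01. Tmod1, which caps the other end of actin filaments, was at 180 and 169 CPM over all cells and at 141 and 26.1 in the lowest band, an interval of the ratio from 2.90 to 11.3. Cd59a, a complement inhibitor, was at 477 and 323.

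**Figure D5:**
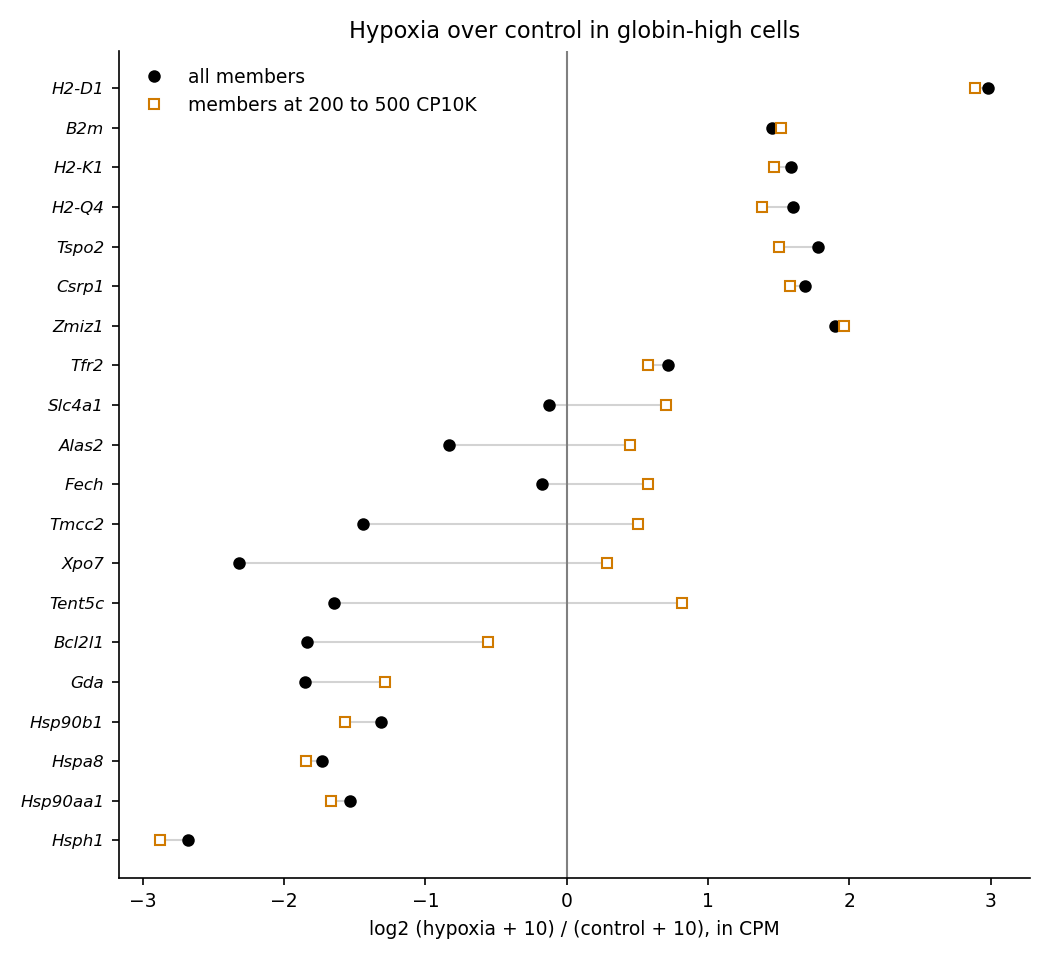
Log2 ratio of hypoxia over control, with 10 CPM added on both sides, over all globin-high cells (black circles) and in the lowest globin band (open squares) for 20 genes. Class I genes, Tspo2 and chaperones keep their side in both, whereas Slc4a1, Alas2, Fech, Tmcc2, Xpo7 and Tent5c move from below 0 to above 0 in the lowest band.

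Of 26 erythroid regulators compared 2 (7.69%, beside 8.97% of all genes) were higher, Ldb1 (154 and 84.4 CPM), the bridge of the GATA1 complex, and Runx1 (47.2 and 20.2), and 2 (7.69%, beside 4.74%) lower, Tal1 (401 and 650) and Lyl1 (29.7 and 53.2), with a median of 0.14. With cells from 100 CP10K on, none of these 4 was called, with log2 ratios of 0.45, 0.48, -0.48 and -0.22. Gata1 was at 576 and 446 CPM, Klf1 at 399 and 505, and Epor, the erythropoietin receptor, at 217 and 196. Bcl11a and Sox6, repressors of embryonic beta-like globins, were at 133 and 161 and at 395 and 418 CPM. In the lowest band Nfe2, the factor of the globin control region, had a log2 ratio of 0.70 and Sox6 of 0.52, against -0.01 and -0.08 over all cells. Of 37 terminal maturation genes 3 (8.11%, beside 8.97% of all genes) were higher, among them Nprl3 (49.4 and 23.9 CPM) and Map1lc3a (47.8 and 23.9 CPM). In the same list 8 (21.6%, beside 4.74%) were lower, Xpo7, Rsad2, Tent5c and Bpgm among them. The list's median was -0.25 over all cells and 0.30 in the lowest band. In the lowest band Xpo7 was at 8.53 and 5.22 CPM and Bpgm at 55.4 and 47.02, both with intervals that took in 1.

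Of 41 S phase genes 2 (4.88%, beside 8.97% of all genes) were higher and 0 lower, beside 4.74%, and their median was 0.18. Of 53 genes of G2 and mitosis 0 were higher, beside 8.97%, and 6 (11.3%, beside 4.74%) lower. Their median was -0.16, or 0.003 in the lowest band. Mki67 was at 2217 and 2769 CPM over all cells and at 2000 and 1573 in the lowest band. Cdk2, a kinase of S phase entry, was at 270 and 172 CPM, a log2 ratio of 0.62. Its call was lost once the median of all genes was set to 0 (0.55), with each cell counting alike (0.53) and with 50 CPM added (0.52). It was also lost with cells from 500 CP10K on (0.13), in thinned cells (0.10) and with bands weighted as in control (0.0028). Of 9 replication-dependent histones compared 0 were higher, beside 8.97%, and 4 (44.4%, beside 4.74%) lower, with Hist1h1d at 10.9 and 36.7 CPM. Their mRNAs carry no poly(A) tail as a rule, so poly(A) capture sees only part of them.

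Of 11 targets of hypoxia-inducible factor 1 (9.09%, beside 8.97% of all genes) was higher and 0 were lower, beside 4.74%. Their median was 0.03, and the one was Kdm3a, a histone demethylase, with 126 UMIs (38.2 CPM) against 9 (16.5 CPM), a ratio of 2.31 (1.18 to 5.17). Its interval in the lowest band took in 1. Of 13 glycolysis genes 0 were higher, beside 8.97% of all genes, and 2 (15.4%, beside 4.74%) lower. The glycolysis median was 0.15, and 0.20 in the lowest band. Of 6 erythropoietin and STAT5 response genes 0 were higher, beside 8.97%, and 2 (33.3%, beside 4.74%) lower. These 2 were Bcl2l1 and the kinase Pim1 (208 and 428 CPM over all cells, 169 and 185 in the lowest band). Of 7 BCL2 family genes 1 (14.3%, beside 8.97%) was higher and 1 (14.3%, beside 4.74%), Bcl2l1, lower. Bak1, which opens the mitochondrial outer membrane in apoptosis, was at 114 and 55.04 CPM, and it was not called with cells from 100 CP10K on (log2 ratio 0.39).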

How the data were processed

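Per the file headers, the authors made the tables with version 1.7.1 of the BD WTA Rhapsody Analysis Pipeline against GRCm38 and the annotation GENCODE vM19. Their values are raw UMI counts of each gene in each cell, which the authors had corrected for molecule errors and deposited without normalization, per the file headers. The submitters' processing notes also list Bowtie2. The sources used here give no cell-calling method. Together the tables held 6406 hypoxia and 3956 control cells with 137504361 and 121415081 UMIs. Of 26060 and 26039 gene columns 24393 were shared, and a gene with no column counted as 0.

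The limit of 20% mitochondrial UMIs removed 14 and 6 cells. Globin-high cells were chosen by summed Hba-a1, Hba-a2, Hbb-bs and Hbb-bt of at least 200 CP10K. UMIs were summed over cells and scaled to 1000000 non-globin UMIs. All globin genes were left out of that total because the choice of cells sets their share. Shares have exact Clopper-Pearson intervals, levels exact Poisson intervals and ratios exact conditional intervals, all at 95% and for counting error only. UMIs of 1 cell are not independent of each other, and variation between cells and mice is not covered. Counts of 0 were read against a floor of 3 UMIs, 0.908 CPM in hypoxia and 5.50 CPM in control. With 1 library in each group no test was made. The code that makes the calls was run on simulated counts with known fold changes, as a check of the code and not of these libraries. Doublets were called with Scrublet in scanpy 1.11.5 and kept. Python 3.11.15, numpy 2.4.6, scipy 1.17.1, pandas 2.3.3, biopython 1.88 and matplotlib 3.10.9 were used.

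Named were the globins and markers, members of the erythroid lists, the 12 highest and 12 lowest log2 ratios of hypoxia over control among genes with at least 50 CPM in 1 library, with no single cell over 25% of the gene's UMIs in the library where it is higher, and an interval that leaves out 1. Named too were the 10 largest gains and losses with globin level, the 8 genes most correlated with globin, and the 2 to 4 members of other lists with the largest ratios. Other genes named, among them Mki67, Top2a, Ccnd3, Car1 and Cdk2, were chosen after their values were seen. A few genes that these rules name are not reported here. The cells and lists were chosen with earlier results of these data known. Gene positions are those of GENCODE on GRCm38.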

Additional observations from a re-analysis of the deposited data

How the results depend on the processing

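No paired analysis was possible because each group had 1 library, and leaving out a replicate could not be run for the same reason. The share ratio of 3.31 fell to 1.33 with a threshold of 500 CP10K and to 1.30 over cells with at least 20 CP10K. The 577 higher and 305 lower genes became 265 higher at 500 CP10K, 315 higher with cells thinned to 5000 UMIs, 1433 and 489 with each cell counting alike, 119 and 98 with 50 CPM added, 264 and 143 with at least 200 UMIs, 1001 and 154 without each gene's top cell, and 508 lower with globin bands weighted as in control. By globin level, 420 higher and 816 lower genes became 275 higher per 1000000 of all UMIs, and 33 and 4 with a split at the median. The other alternatives kept these counts within 1.5 times, namely thresholds of 100 CP10K, the mitochondrial limits, doublets left out, 1 CPM added, no minimum of UMIs and the deepest cell left out. The scalings also did so but moved the split, to 690 and 233 per 1000000 of all UMIs and to 452 and 408 with the median ratio set to 0.

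Some directions turned. With bands weighted as in control, log2 ratios became 0.049 for Bpgm, 0.38 for Epb41, 0.45 for Fam214b, 0.00101 for Isg15, 0.45 for Ncoa4, 0.76 for Rsad2, 0.82 for Slfn14, 0.22 for Sowaha, 0.70 for Tcp11l2, 0.083 for Tent5c, 0.96 for Tmcc2 and 0.44 for Xpo7. In the lowest band alone, an alternative chosen after seeing the data, they became 0.45 for Alas2, 0.20 for Bpgm, 0.0025 for Epb41, 0.98 for Fam214b, 0.71 for H2-T24, 0.31 for Isg15, 0.26 for Ncoa4, 0.89 for Rsad2, 0.19 for Slc25a37, 0.62 for Slfn14, 0.15 for Tcp11l2, 0.82 for Tent5c, 0.50 for Tmcc2 and 0.28 for Xpo7. Elane turned to -1.44 and H2-T24 to 0.20 at a threshold of 100 CP10K, and Ifi27 to -0.056 in thinned cells. Of 111 genes followed one by one, others kept their direction but lost their call, 19 with weighted bands, 17 with 50 CPM added, 16 at 100 CP10K, 13 in the lowest band, 8 in thinned cells, 7 with each cell counting alike and 4 at 500 CP10K. The cause was not tested. The 16 and 6 control cells of the lowest and middle band limit the depth of every comparison made there.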

Other observations

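Genes of the interferon response and mitochondrially encoded genes were also compared. Of 15 interferon genes 3 (20%, beside 8.97% of all genes) were higher and 3 (20%, beside 4.74%) lower in hypoxia cells, among them Ifi27 at 52.4 and 23.9 CPM and Isg15, a ubiquitin-like modifier, at 11.2 and 44.0 CPM. Isg15 was at 5.69 and 2.61 CPM in the lowest globin band and at 276 and 277 in the highest. The interferon list had 6 of 7 genes at least 2-fold higher in the highest than in the lowest band in both libraries, beside 11.5% of all genes. Class I genes had medians of -0.82 and 0.14 over the same bands. Of 13 mitochondrially encoded genes 2 (15.4%, beside 8.97% of all genes) were higher in hypoxia and 0 lower, beside 4.74%. The 2 were mt-Nd6 at 50.6 and 20.2 CPM and mt-Atp8 at 163 and 77.06 CPM. The most abundant, mt-Co1, a subunit of the last enzyme of the respiratory chain, was at 18934 and 14489 CPM, a ratio of 1.31 (1.28 to 1.34).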
